A study of Mus musculus with 39 samples.

Results

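HS60 and HS90 are a pair of sites upstream of the mouse beta globin locus, beyond the locus control region (LCR) as seen from the genes, and each served as a viewpoint in NG Capture-C, which counts how often DNA fragments are ligated to a chosen fragment. The members described here are the DpnII fragments between positions 110800000 and 111200000 of chromosome 7 (mm9), each with its interaction value from HS60 (chr7:111061643-111062050) and, kept apart, from HS90 (chr7:111091378-111092626). The interval of 400 kb holds 1018 of the 370797 DpnII fragments of the chromosome. A total of 30 fragments within 1 kb of the HS60, HS90, Hbb-b1 or Hbb-b2 viewpoint were left out. The 988 kept had a median length of 241 bp and a range from 4 to 3348 bp. The labels of the series also list HS1 (chr7:111007506-111007930) and HS2 (chr7:111009550-111009749), in the LCR, and fragments near these were kept.

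The study followed chromatin structure at the globin loci through erythroid differentiation and after deletion of alpha globin elements. The cells were erythroblasts grown from mouse foetal liver (MFL). Erythroid progenitors of C57Bl6 mice were expanded in culture, depleted of Ter119-positive cells and sorted by CD44 and size. The paper instead gives a mixed background for its wild-type and mutant mice. HS60 and HS90 were analysed in 4 groups of 3 replicates: WT cells before differentiation (MFL 0 h), WT cells after 30 h in differentiation medium (MFL 30 h), and, from a separate experiment, DKO and WT cells, also at 30 h. BrdU was added to the cultures for the last hours. DKO cells are homozygous for deletion of R1 and R2, the major enhancers of alpha globin on chromosome 11, and the labels name no deletion on chromosome 7 in any group. Every library is a bulk of cultured, sorted cells, so a contact made in fewer cells and one made less often in each cell cannot be told apart. MFL 0 h and MFL 30 h replicates were sequenced in a MiSeq and a NextSeq run, and DKO and WT replicates on the NextSeq only.

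In the mouse beta globin locus, the embryonic genes Hbb-y and Hbb-bh1 lie nearer to the LCR, a cluster of strong erythroid enhancers, than the adult genes Hbb-b1 and Hbb-b2. Olfactory receptor genes flank the locus on both sides, and are used in the nose, not in blood. Hypersensitive sites outside the LCR and on the far side of the adult genes are known to bind CTCF and to contact each other in erythroid cells, and CTCF sites that face each other often mark the borders of self-interacting domains. AGATAA is a form of the motif bound by GATA1, a master regulator of erythroid genes.

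The following sequences are shown because HS60 and HS90 were the baits and because the other stretches lie where both profiles were high. All are the plus strand of mm9. Capitals mark a match to the 12-base core of the CTCF motif, with at most 1 mismatch, or, where given, to AGATAA, on either strand. The first 200 bases of each viewpoint fragment (chr7:111061643-111061842 and chr7:111091378-111091577) are followed by the 92 bases around matches in the opposite flank (chr7:110941568-110941659), near the LCR (chr7:111023118-111023209) and in the far flank (chr7:110859306-110859397 and chr7:110860661-110860752), and by 200 bases of an opposite flank fragment (chr7:110941396-110941595) that ranked among the highest of its window from both viewpoints.
HS60: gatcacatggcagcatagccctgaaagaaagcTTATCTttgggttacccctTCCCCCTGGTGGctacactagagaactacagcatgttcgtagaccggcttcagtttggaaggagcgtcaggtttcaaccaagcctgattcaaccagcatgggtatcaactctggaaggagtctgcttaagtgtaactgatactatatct
HS90: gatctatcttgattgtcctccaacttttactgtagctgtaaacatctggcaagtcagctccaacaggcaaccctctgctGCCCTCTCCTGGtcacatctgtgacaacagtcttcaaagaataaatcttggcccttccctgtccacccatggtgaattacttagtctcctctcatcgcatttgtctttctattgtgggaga
Opposite flank, CTCF core: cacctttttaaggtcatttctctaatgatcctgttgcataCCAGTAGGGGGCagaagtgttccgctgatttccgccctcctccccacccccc
LCR edge, CTCF core: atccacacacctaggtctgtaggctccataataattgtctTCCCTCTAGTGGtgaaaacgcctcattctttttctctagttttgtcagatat
Far flank, first CTCF core: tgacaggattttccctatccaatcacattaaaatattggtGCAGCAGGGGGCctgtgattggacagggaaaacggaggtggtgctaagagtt
Far flank, second CTCF core: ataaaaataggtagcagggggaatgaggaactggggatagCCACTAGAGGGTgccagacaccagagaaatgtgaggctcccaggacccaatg
Opposite flank fragment: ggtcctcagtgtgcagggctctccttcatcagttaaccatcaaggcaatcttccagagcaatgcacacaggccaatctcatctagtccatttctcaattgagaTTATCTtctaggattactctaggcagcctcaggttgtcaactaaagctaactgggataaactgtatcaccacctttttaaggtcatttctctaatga

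The CTCF core was found at 19 positions of the interval, and 1.9% of its DpnII fragments held one. Only the one in the opposite flank, at chr7:110941608-110941619 on the plus strand, matched without a mismatch. The HS60 fragment held a match on the minus strand (chr7:111061694-111061705), as did 1.9% of windows of its length of 408 bp taken across the interval. HS90 held one on the minus strand too (chr7:111091457-111091468), against 5.7% of windows of its 1249 bp. Of the 6 matches in the far flank 5 were on the plus strand, and the 2 in the adult genes were on the minus strand. Between the LCR and HS60 1 was on the plus and 3 on the minus strand. Between HS60 and HS90 1 was on the plus strand, and beyond HS90 1 was on the plus and 2 on the minus strand. Some matches lie in nearly the same sequence: 1 of the adult genes and 2 beyond HS90, and 1 of the far flank and that between HS60 and HS90. HS60 held 1 AGATAA, against 31.4% of windows of its length with at least 1. HS90 held 4, a number that 3.4% of windows of its length reached, with a median of 1, and all 4 lie past the stretch shown. Both viewpoint fragments are intergenic, HS60 at 1.5 kb from Olfr631 and HS90 at 2.5 kb from Olfr633. A match describes letters only, and no binding was measured here.

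Values are reads per 100000 reads of that viewpoint on chromosome 7, given as a share (percent) or per kb of fragment kept. NextSeq libraries held 10580 to 59377 reporter reads from HS60 and 16429 to 85525 from HS90, and MiSeq libraries 2817 to 9069 and 4543 to 14228. From 39.7% to 55.3% of the reads on chromosome 7 fell in the interval. DKO replicate 1 stood apart from the other libraries. There 43 members had no read from HS60, HS90, Hbb-b1 or Hbb-b2 but reads in all other libraries, against 0 to 30 members in each of those. Of these 43, 16 lay in the far flank, 12 among the 55 members of the adult genes and none from HS60 outwards. Replicates of a group are named as separate in the labels. Whether they came from separate litters or cultures is not given, so p-values measure only the spread between these samples, which may be technical. Limma p-values for a bin also draw on the spread of other bins.

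The interval was divided into windows around the captured fragments. In order along the chromosome these were a far flank of olfactory receptor genes (from chr7:110800000), an opposite flank of 50 kb next to the adult genes, the adult genes, the embryonic genes, the LCR of 15 kb, the stretch from the LCR to HS60, the 10 kb on either side of HS60, the stretch between HS60 and HS90, the 10 kb on either side of HS90, and the region beyond HS90. Globin genes means the adult and embryonic windows together. From HS60, 158 of the 988 members had no read in any of the 12 libraries and 667 had a mean of at least 10. From HS90 these numbers were 149 and 719. The 146 members at 0 from both viewpoints had a median length of 41 bp, against 306.5 bp for the others, and 23 of the 39 members between HS60 and HS90 were among them.

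**Figure D1:**
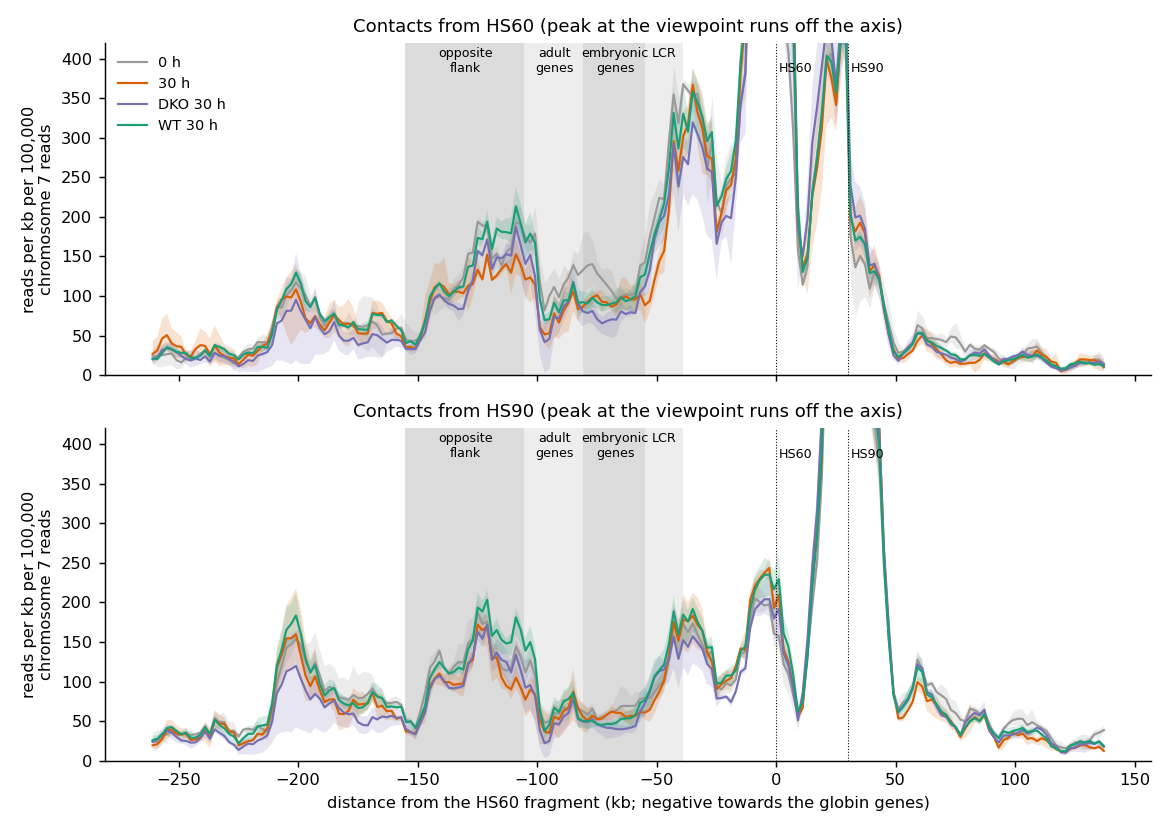
Mean interaction profiles over the interval from HS60 and HS90 in reads per 100000 chromosome 7 reads per kb, by group, in a moving window of 10 kb, against the distance from HS60 in kb. The line is the mean of 3 replicates and the band runs from the lowest to the highest. Both profiles fall away from the viewpoint, and both rise again over the opposite flank, where the highest 10 kb reached a mean of 179.7 from HS60 and 184.8 from HS90.

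HS60 was contacted most by its own surroundings, with group means of 630.6 to 889.6 reads per kb. From the LCR to HS90 the other windows had group means of 208.1 to 314.3, and the globin genes, farther off, 78.1 to 116.9. In the 3 WT replicates at 30 h the LCR window held 221.4, 272.0 and 280.8 reads per kb from HS60. From HS90, farther away, it held 117.2, 162.0 and 169.3. Over all 12 libraries the share of the LCR from HS90 was 0.55 times that from HS60 and lower in every library (log2 ratio −0.86 ± 0.22, SD). The ratio was 0.43 for the stretch between the LCR and HS60, 0.56 for the embryonic and 0.68 for the adult genes, all lower from HS90 in each of the 12 libraries. The order turned in the flanks: the region beyond HS90 gave 2.11 times the share from HS90, and the far flank 1.26 times, both higher in 12 of 12 libraries. In the opposite flank, between the far flank and the adult genes, the shares from the viewpoints lay close to each other (0.95 times, higher from HS90 in 2 of 12 libraries, log2 ratio −0.07 ± 0.10). These ratios are a description over libraries of different groups.

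**Figure D2:**
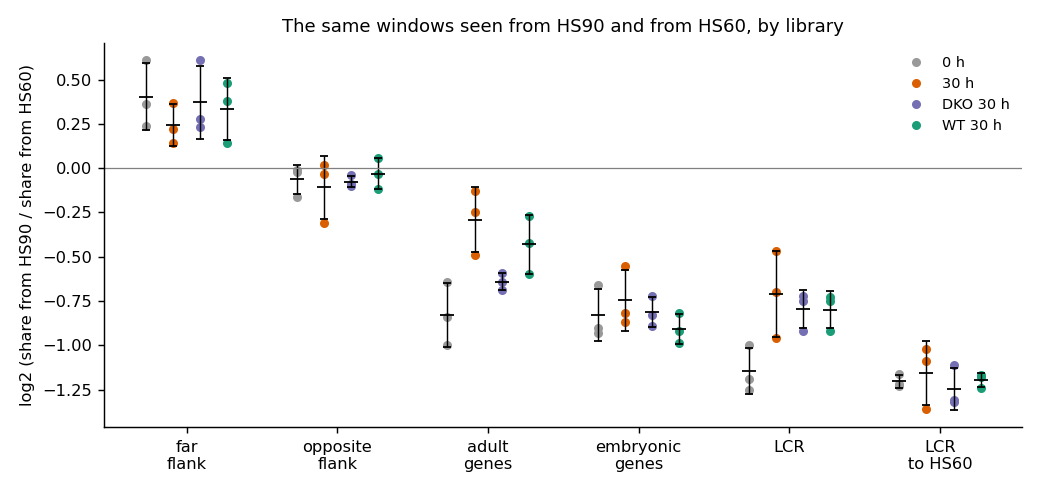
Log2 ratio of the share of chromosome 7 reads from HS90 over that from HS60, by window and library, with group mean ± SD of 3 replicates. The far flank lies above 0 in all 12 libraries, the adult genes, embryonic genes and LCR below 0 in all 12, and the opposite flank lies near 0.

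The opposite flank, 104.7 to 154.7 kb from HS60, held more reads per kb than the globin genes, which are nearer, when the adult and embryonic windows were pooled. The adult window kept only 17.1 of its 24.5 kb, as the fragments left out near the Hbb-b1 and Hbb-b2 viewpoints cover both adult genes. Its values are thus those of the sequence around these genes, while the opposite flank kept 50.2 kb. Against the adult genes alone the log2 ratio from HS60 was −0.04 ± 0.10 at 0 h, so the flank was not above them there, and 0.47 ± 0.31, 0.36 ± 0.35 and 0.34 ± 0.12 in MFL 30 h, DKO and WT (SD, n = 3). From HS60 it held 125.6, 126.1 and 120.4 reads per kb at 0 h against 120.9, 124.5 and 105.3 in the globin genes. At 30 h the values of MFL were 114.8, 104.4 and 102.4 against 87.8, 83.6 and 85.7. From HS90 the difference was larger: 115.5, 133.0 and 130.4 against 48.8, 61.9 and 69.2 in WT. The log2 ratio of opposite flank over globin genes was above 0 in all 12 libraries from HS60 (mean 0.33, range 0.02 to 0.74) and from HS90 (mean 0.97, range 0.60 to 1.46). The highest 10 kb of the flank was the same from both viewpoints, chr7:110935001-110945000, and in WT cells at 30 h it held 195.2, 205.8 and 186.1 reads per kb from HS60 and 181.8, 218.5 and 214.3 from HS90. It includes the single exact CTCF core match shown above. The far flank also had a shared high point for HS60 and HS90, chr7:110856001-110866000, which held both plus-strand matches shown above. From HS60 it held 19.0, 154.7 and 112.9 reads per kb in DKO replicates 1 to 3 and from HS90 41.9, 163.6 and 155.3, so that DKO replicate 1 was the lowest of the 12 libraries from both. The other 9 libraries ranged from 47.3 to 140.5 from HS60 and from 124.6 to 218.4 from HS90. Over all libraries, the 10 kb around the 2 far flank matches shown held 97.0 and 107.9 reads per kb from HS60, and 144.0 and 151.1 from HS90. The 2 matches start at chr7:110859346 and chr7:110860701, so these stretches largely overlap and hold mostly the same reads. Around the far flank matches not shown, the values were 15.8 to 56.7 from HS60 and 18.9 to 69.3 from HS90. The matches shown were chosen because the profiles were high there, so that the others were lower follows from the choice. A link between matches and contacts was not tested.

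**Figure D3:**
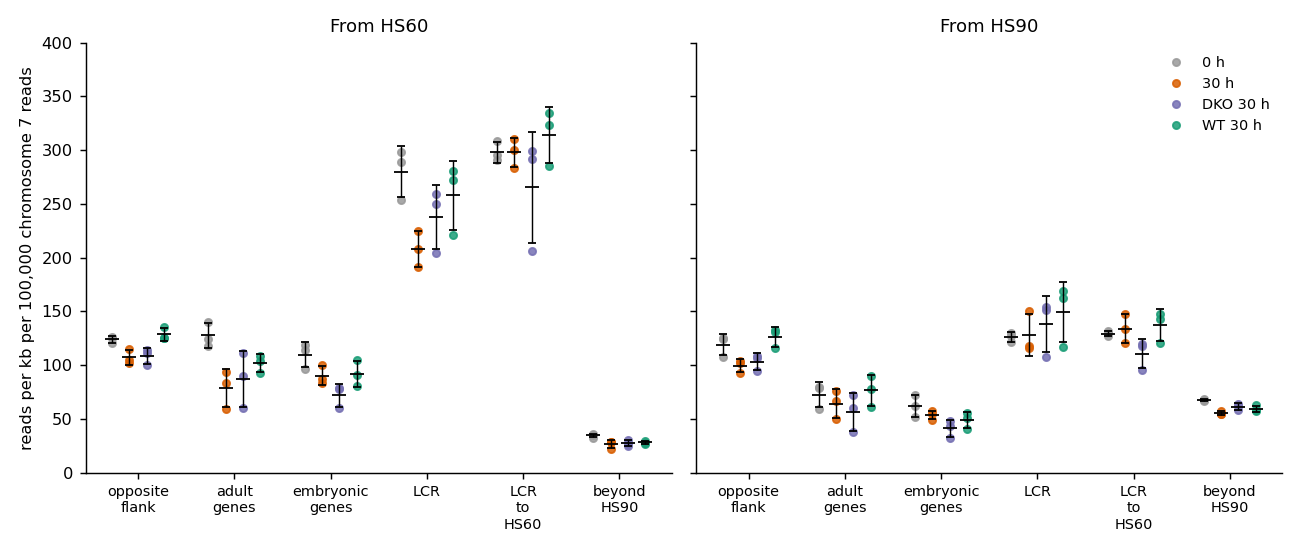
Reads per kb in each window from HS60 and HS90, each point a library, with group mean ± SD of 3 replicates. The LCR lies above the adult and embryonic genes from both viewpoints, and the opposite flank, with group means of 99.6 to 126.3 from HS90, lies above both gene windows from HS90.

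Among single fragments, chr7:110940626-110941595, an intergenic piece of 970 bp at 0.3 kb from Olfr67, was among the highest of the opposite flank from both viewpoints. From HS60 it held 148.4, 229.0 and 255.8 at 0 h, 71.0, 49.4 and 181.0 in MFL at 30 h, 151.3, 185.4 and 159.3 in WT and 230.8, 144.8 and 220.6 in DKO. The WT replicates were close together, and the MFL 30 h replicates spread from 49.4 to 181.0. From HS90 its mean over all libraries was 177.2, against 168.9 from HS60 and medians of 35.46 and 40.52 for a fragment of that flank. These values and ranks are per fragment, not per kb, which favours long fragments, and the median member has 241 bp. Per kb, the whole flank had group means of 107.2 to 128.7 from HS60. In the LCR chr7:111021352-111022003 was among the highest 2 from both viewpoints over all libraries, with means of 259.8 from HS60 and 125.5 from HS90. From HS60 it was highest at 0 h, 449.9 ± 90.1, against 201.0 ± 61.2 in MFL 30 h, 162.2 ± 66.0 in DKO and 226.3 ± 60.6 in WT (SD, n = 3), so its mean over all libraries was carried by 0 h. In the adult genes chr7:110957505-110958539, of 1035 bp, was highest from both, with means of 115.7 and 83.2. It lies at 2.5 kb from the gene that the annotation names Hbb-b2 and the labels Hbb-b1. In the embryonic window chr7:110981990-110983085, of 1096 bp, which overlaps an exon of the pseudogene Hbb-bh3, had means of 92.2 and 52.7. From HS60 the group means per kb were 78.6 to 127.7 in the whole adult window and 72.0 to 109.7 in the embryonic one. The 20 top ranks of the windows went to 15 different fragments, and 5 of these 15 were ranked from both HS60 and HS90. The surroundings of each site were ranked only from the other, so fragments there could not be shared. How many shared fragments would arise without any link was not tested. The 10 ranked from one viewpoint had means of 85.4 to 240.8 from HS60 and of 53.5 to 179.5 from HS90.

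The contacts of both sites were heavier towards the globin genes than away from them. At 40 to 100 kb from HS60, MFL 30 h libraries held 107.7, 110.9 and 109.2 reads per kb on the globin side against 34.1, 35.7 and 29.0 on the other, and WT libraries 112.5, 131.0 and 141.7 against 35.9, 39.4 and 36.3. HS90 had 112.1, 103.1 and 120.8 against 28.2, 32.6 and 28.0 in MFL, and 98.1, 123.6 and 129.4 against 37.0, 34.4 and 29.9 in WT. The globin side was higher in 6 of 6 libraries for each viewpoint, with a log2 ratio of 1.76 ± 0.14 from HS60 and 1.86 ± 0.28 from HS90 (SD, n = 6; 3.38-fold and 3.62-fold; two-sided exact sign-flip permutation test, p = 0.031, the smallest that 6 libraries allow is 0.03125; p = 0.047 after adjustment over the 3 tests). The difference between HS60 and HS90 was −0.10 ± 0.19 (exact permutation p = 0.281), with single libraries from −0.33 to 0.24, and depended on the distances compared. At 20 to 60 kb it was −0.67 (exact permutation p = 0.0312) and at 40 to 130 kb it was 0.40 (exact permutation p = 0.0625). Within MFL 30 h the log2 ratio was 1.74 from HS60 and 1.92 from HS90, and within WT 1.78 and 1.79, where 3 libraries cannot give p under 0.25. At 0 h it was 1.73 and 1.40. From HS90 the 0 h libraries (1.25 to 1.5) lay below those of MFL 30 h (1.66 to 2.11) but overlapped WT (1.41 to 2.11), a difference that was not tested. In DKO cells it was 1.14, 1.85 and 1.77 from HS60 and 1.24, 1.82 and 1.52 from HS90, with DKO replicate 1 the lowest from both.

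**Figure D4:**
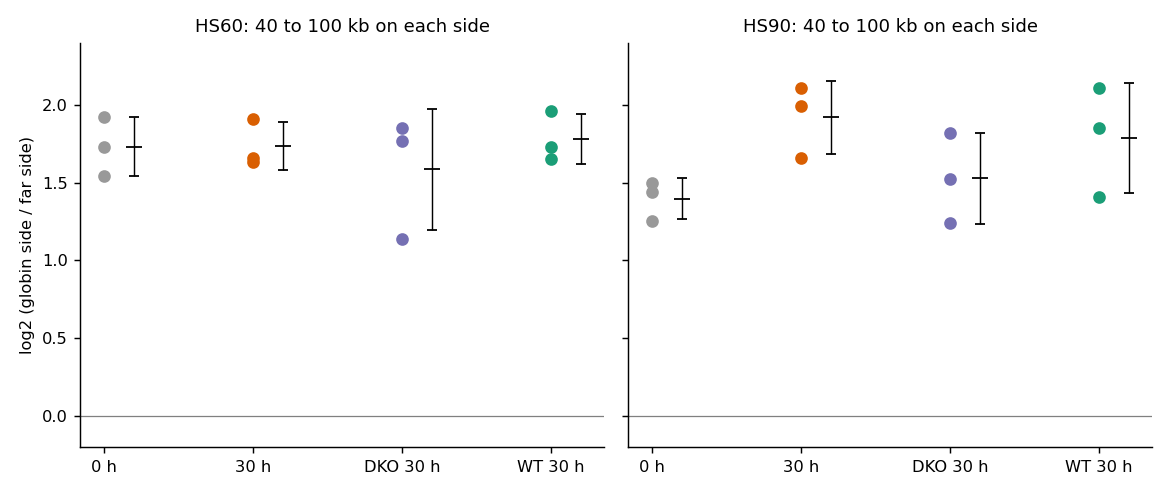
Log2 ratio of reads per kb at 40 to 100 kb on the globin side over the far side of HS60 and HS90, each point a library, with group mean ± SD of 3 replicates. All 12 libraries lie above 0 from both viewpoints, the lowest at 1.14 from HS60 and 1.24 from HS90.

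In MFL at 30 h the shares of HS60 contacts in the opposite flank, the globin genes and the LCR were lower than at 0 h in every replicate, and those close to HS60 were higher. The opposite flank held 6.30, 6.33 and 6.05% of reads at 0 h and 5.76, 5.24 and 5.14% at 30 h. The globin genes held 5.19, 5.34 and 4.52% at 0 h and 3.77, 3.58 and 3.68% at 30 h. The LCR held 4.35, 4.21 and 3.70% at 0 h and 2.80, 3.28 and 3.04% at 30 h. The stages did not overlap in any of the 3 windows, with differences of −0.844 ± 0.212, −1.34 ± 0.259 and −1.05 ± 0.241 percentage points (SE, n = 3 per group). On the other side, the region beyond HS90 was lower too and was not tested: 3.15, 3.42 and 3.46% at 0 h and 2.78, 2.75 and 2.12% at 30 h. The surroundings of HS60 itself held 10.0 ± 0.695% at 0 h and 14.1 ± 0.666% at 30 h (SD, n = 3). Contacts of HS60 with the surroundings of HS90 overlapped between the stages: 3.50, 4.37 and 4.55% at 0 h and 5.02, 4.73 and 3.73% at 30 h.

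From HS90 the opposite flank was also lower at 30 h, 4.64, 5.14 and 5.23% against 6.27, 6.25 and 5.41%, a difference of −0.977 ± 0.338 points. On the deposited scale the stages overlapped in this window, as MFL 30 h reached 3.784% and MFL 0 h began at 3.761%. The region beyond HS90, not tested, held 5.27, 5.56 and 5.28% at 30 h and 6.58, 6.45 and 6.56% at 0 h. The surroundings of HS60 were higher from HS90 at 30 h, 2.77, 2.98 and 2.90% against 2.69, 2.23 and 2.48%. The globin genes (2.61, 2.26 and 2.57% against 2.97, 3.20 and 2.35%) and the LCR (1.72, 1.69 and 2.20% against 1.90, 1.77 and 1.85%) overlapped between the stages from HS90. Groups of 3 against 3 cannot give a p under 0.1 in the exact permutation test, and 0.1 was the p of each of the 7 of 16 comparisons whose ranges did not overlap (adjusted p = 0.229, the smallest of the 16). With the WT libraries of the DKO experiment in place of MFL 30 h, the log2 difference of the opposite flank turned from −0.21 to 0.05 from HS60 and from −0.26 to 0.09 from HS90. From HS60 the globin genes then differed by −0.29 instead of −0.45 (exact permutation p = 0.2) and the LCR by −0.12 instead of −0.43 (exact permutation p = 0.5), and both windows overlapped between the stages. With the viewpoint's own surroundings left out of the total, the HS60 differences were −0.14 in the opposite flank, −0.38 in the globin genes and −0.36 in the LCR.

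In bins of 2 kb, limma called 2 of 1552 bins higher from HS60 at 30 h (0.129% of those tested) and none lower (0.0%), with 54 bins at an unadjusted p under 0.05. Both higher bins lay within 10 kb of HS60. The nearer, chr7:111064001-111066000 inside Olfr631, held 1412, 1699 and 1843 reads per 100000 at 0 h and 3863, 3780 and 2709 in MFL at 30 h, a log2 change of 1.05 ± 0.11 (SE; limma adjusted p = 3.68e-19). The SE and p of this bin draw on variance pooled over bins, not on the spread of these replicates alone. The WT and DKO libraries at 30 h, which the fit did not use, held 2266 to 3233 and 2168 to 3109 there. The other, chr7:111054001-111056000 over Olfr65, held 1585, 1454 and 1911 at 0 h and 2510, 2114 and 2647 at 30 h (log2 change 0.56 ± 0.12, limma adjusted p = 0.00349). In single fragments limma called 5 higher, and edgeR and DESeq2 on recovered reads called 1 bin each. The median log2 change over all bins was −0.29 from HS60 and −0.27 from HS90. Of the bins with less at 30 h, the smallest p belonged to chr7:110940001-110942000 in the opposite flank, which did not pass (558, 636 and 556 at 0 h, 201, 232 and 388 in MFL at 30 h; log2 change −1.15 ± 0.36, limma adjusted p = 0.578). The WT libraries at 30 h held 481, 593 and 481 there, above all 3 MFL 30 h libraries.

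From HS90 limma called 0 of 1166 bins in either direction at 30 h (0.0%), with 52 at an unadjusted p under 0.05, and edgeR called 0 and DESeq2 3. The bin with the smallest p was next to the viewpoint, chr7:111094001-111096000, which held 2583, 2625 and 2438 at 0 h and 3660, 3370 and 3011 at 30 h without overlap (log2 change 0.39 ± 0.10, limma adjusted p = 0.0644). The WT libraries held 3226, 3328 and 3324 there. In the other direction chr7:111196001-111198000 beyond HS90 held 33.9, 65.9 and 33.4 at 0 h and no read in any MFL 30 h library, which did not pass (limma adjusted p = 0.92), and WT libraries held 28.4, 45.7 and 33.8.

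**Figure D5:**
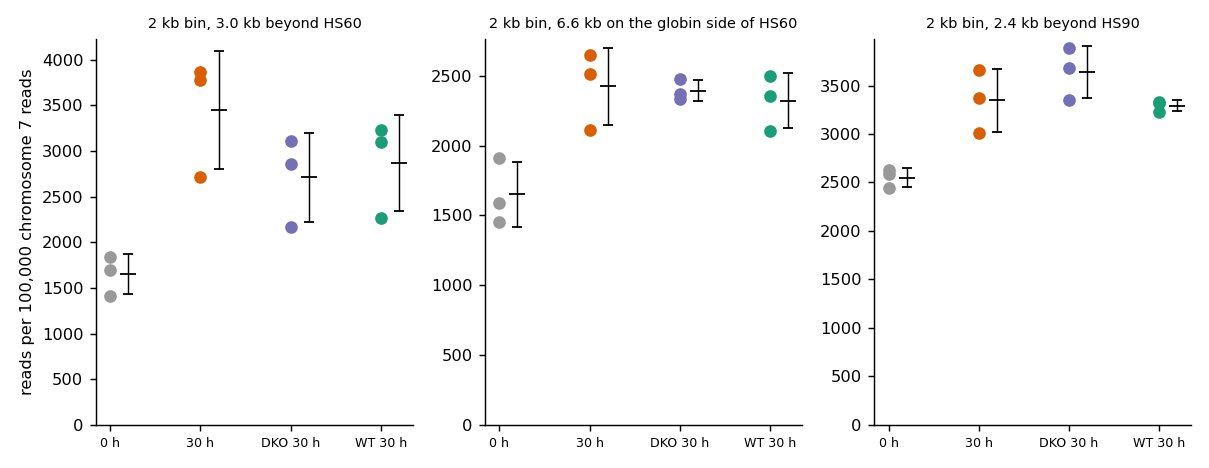
Reads per 100000 in the 2 kb bins near HS60 and HS90 that ranked first for a rise at 30 h, each point a library, with group mean ± SD of 3 replicates. The 3 libraries at 0 h lie below the MFL, WT and DKO libraries at 30 h in each of the 3 bins.

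Of the windows compared by a test, the opposite flank alone did not overlap between DKO and WT cells. It was lower in DKO from HS60 (5.04, 5.59 and 5.74% against 6.29, 6.81 and 6.29%) and from HS90 (4.73, 5.45 and 5.36% against 5.80, 6.68 and 6.55%), without overlap. The differences were −1.01 ± 0.274 and −1.16 ± 0.353 percentage points (exact permutation p = 0.1, the smallest possible, adjusted 0.229). With other scalings the groups could overlap. Scaled to 500 kb, DKO reached 10.192% and WT began at 10.115% from HS60. On the deposited scale DKO reached 3.949% and WT began at 3.924% from HS90. The MFL 30 h libraries, WT cells of the other experiment, held 5.14 to 5.76% from HS60 and 4.64 to 5.23% from HS90, near the DKO shares. Without DKO replicate 1 the log2 differences were −0.19 and −0.23, against −0.25 and −0.29 with it. In the globin genes HS60 had 2.57, 3.54 and 3.94% in DKO and 3.66, 4.12 and 4.57% in WT, and HS90 1.47, 2.15 and 2.46% against 2.09, 2.66 and 2.97%. DKO replicate 1 was lowest in both, and the groups overlapped (exact permutation p = 0.2 and 0.3). The LCR window overlapped from both viewpoints as well (exact permutation p = 0.5 for each). The surroundings of HS90 as seen from HS60 were 4.83 ± 0.823% in DKO and 4.53 ± 0.181% in WT, and those of HS60 as seen from HS90 2.58 ± 0.255% and 3.00 ± 0.411% (SD, n = 3). Other windows were not tested, and some did not overlap. Between HS60 and HS90 the DKO shares were higher, 3.42, 2.48 and 2.42% against 2.26, 2.15 and 1.98% from HS60 and 2.42, 2.20 and 2.29% against 2.06, 2.00 and 1.95% from HS90. The DKO shares were lower in the embryonic genes from HS60 (1.54, 2.00 and 2.03% against 2.08, 2.34 and 2.70%) and between the LCR and HS60 from HS90 (2.82, 3.49 and 3.54% against 3.57, 4.24 and 4.38%).

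Limma called 0 of 789 bins from HS60 (0.0%) and 0 of 877 from HS90 (0.0%) between DKO and WT, with 42 and 70 bins at an unadjusted p under 0.05, and edgeR and DESeq2 called 0. The bins ranked first in each direction did not pass: from HS60 the log2 difference was 0.51 at chr7:111076001-111078000, between HS60 and HS90, and −0.96 at chr7:110984001-110986000 in the embryonic window (limma adjusted p = 0.766 for both). From HS90 chr7:111088001-111090000 next to the viewpoint was at 0.33 (limma adjusted p = 0.552) and chr7:110890001-110892000 in the far flank at −1.14 (limma adjusted p = 0.463). That far flank bin held 56.5, 80.7 and 94.7 in DKO and 118.5, 185.5 and 216.3 in WT.

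Seen from the genes, the surroundings of HS60, which lie nearer to them, had higher group means per kb than those of HS90. Viewpoints are named as in the labels, so that the Hbb-b1 viewpoint (chr7:110961967-110962817) overlaps the gene that the annotation names Hbb-b2, and the reverse. The Hbb-b1 viewpoint gave 144.6 ± 19.0 reads per kb in the surroundings of HS60 and 74.2 ± 13.3 in those of HS90 in WT cells at 30 h, and the Hbb-b2 viewpoint 114.5 ± 14.5 and 65.9 ± 2.38 (SD, n = 3). Both genes had fewer contacts beyond HS90, 10.4 ± 3.43 and 5.66 ± 1.22 in WT. In other groups the difference between the sites was smaller from the Hbb-b1 viewpoint, and their ranges could overlap. In MFL 30 h they were 87.4 to 112.3 for HS60 and 72.0 to 92.6 for HS90, and in DKO 86.6 to 171.3 and 77.6 to 131.2. The part of distance in this order was not tested.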

How the data were processed

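NG Capture-C data from 12 libraries (18 tables, as MFL replicates were sequenced in 2 runs) were analysed. Material was digested with DpnII and ligated (3C), enriched in a double oligonucleotide capture, and the authors counted reporter reads per DpnII fragment. The submitters' processing notes name Trim Galore, Bowtie and mm9, and the versions are not given in the sources used here. The deposited values have RPM as the nearest unit, scaled by the authors to 100000 reads per viewpoint over all chromosomes. Whole reads were recovered from them for 100.0% of values (tolerance 0.1 read). Other samples without these viewpoints were not used. The DKO and WT tables hold HS60 and HS90 columns, although the labels of those samples do not list these among the captured fragments.

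Fragments within 1 kb of the HS60, HS90, Hbb-b1 or Hbb-b2 viewpoint were left out, and values were scaled to 100000 reads on chromosome 7. Runs of a replicate were averaged. In 2 kb bins of the interval they differed by less than sampling noise (chi-square per degree of freedom 0.4 to 0.63). Their share of reads on chromosome 7 differed, at 54.0 to 58.0% (NextSeq) and 64.2 to 68.6% (MiSeq) from HS60 at 0 h. Between MFL 0 h replicates the HS60 chi-square per degree of freedom was 7.03 to 8.7 on the NextSeq and 1.01 to 1.11 on the MiSeq. The share of each window was compared by a two-sided exact permutation test with Benjamini-Hochberg adjustment over 16 tests. Chromosome 7 was cut into 2 kb bins, those averaging at least 10 were kept, and these were compared on log2(value + 1) with limma 3.58.1 (R 4.3.3, threshold 0.05, adjusted over all bins of chromosome 7), so fold changes of low bins are understated. Limma moderated the variance of each bin towards a trend over the bins tested. edgeR 4.0.16 and DESeq2 1.42.0 were run on recovered reads. Side ratios were compared by an exact sign-flip permutation test. The limma step was tested on simulated data. Depth set the floor: 3 reads were worth 5.57 to 192.31 per 100000, which covers counting error only.

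Named sites were the 2 fragments with the highest mean, per fragment and not per kb, in each window and viewpoint. Per comparison and direction they were also the bins of the interval past the threshold or, with none, the bin with the smallest p. Fragments ranked from both viewpoints are described singly, apart from 1 that is not reported here, and those ranked from one viewpoint by their range. The stretches around CTCF core matches were chosen after their values were seen. Members, windows and rules were chosen with earlier results of these data known. Genes came from GENCODE on mm9. Alternatives covered the pseudocount, the filter, bin size, window edges, scaling, runs, replicates left out and the replicate block. Leaving a viewpoint's surroundings out of the total and using the WT libraries as the 30 h group were added after seeing the data.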

Additional observations from a re-analysis of the deposited data

Results flagged for a closer look

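Reads on other chromosomes entered no comparison, and the fragment with the highest mean there is given for each viewpoint. From HS90 a fragment of 24 bp, chr8:84020949-84020972, had a mean of 200.0 reads per 100000 over all chromosomes, against 22.6 for the next fragment of another chromosome, and ranged from 50.3 to 455.0 between libraries. Its 24 bases also stand once on chromosome 7, at chr7:111091289-111091312, 65 bases before the HS90 fragment. From HS60 the highest was chr3:33975872-33976441, with a mean of 31.3 and a range from 0.0 to 62.6, and the next was at 25.7, both within the range of what 3 reads are worth in NextSeq libraries (8.54 to 53.22 on the chromosome 7 scale). Its sequence was not found on chromosome 7. No control sample gives a background for these values.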

How the results depend on the processing

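Of the alternatives for window shares, 221 kept the direction and 11 reversed. Only the direction was compared, as no window test could pass the threshold with 3 replicates. Keeping the direction does not mean that ranges stayed apart. The log2 change of the opposite flank at 30 h was 0.054 from HS60 and 0.085 from HS90 with WT libraries in place of MFL 30 h, and from HS60 that of the globin genes was −0.285 and of the LCR −0.119. The small LCR change from HS90 at 30 h was −0.04 in the NextSeq run and −0.003 with other window edges, and −0.111 to 0.09 with single replicates left out, below 0 without MFL 30 h replicate 3 or MFL 0 h replicate 2. Between DKO and WT, scaling to 500 kb gave an LCR difference of 0.023 from HS60 and 0 from HS90, and leaving out replicates gave −0.264 to 0.032 from HS90, the highest without DKO replicate 1. HS90 surroundings from HS60 were at −0.008 on the deposited scale and −0.056 to 0.174 with replicates left out, lowest without DKO replicate 1. The causes were not tested.

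Side ratios of 1.72 to 1.78 from HS60 and 1.8 to 1.95 from HS90 remained with a library left out, and the smallest p that 5 libraries allow is 0.0625. Within MFL 30 h they were 1.74 and 1.92, and within WT 1.78 and 1.79. Their difference was −0.67 at 20 to 60 kb and 0.4 at 40 to 130 kb.

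Bins called higher from HS60 at 30 h numbered 5 with single fragments and 1 with deposited values, with 5 kb left out, in the NextSeq run, with edgeR and with DESeq2, and 1 to 2 with replicates left out (1 without MFL 30 h replicate 3 or MFL 0 h replicate 1 or 2). Bins called lower numbered 0 to 1 (1 without MFL 30 h replicate 1). From HS90 at 30 h, higher bins numbered 1 with a pseudocount of 5, with single fragments and in the MiSeq run, 4 with a mean of at least 3, 2 without a filter and 3 with DESeq2. Between DKO and WT, a mean of at least 3 gave 1 lower bin from HS60 and 5 from HS90, and no filter gave 2 higher and 5 lower from HS90.

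Replicate numbers did not pair the samples: deviations of equal numbers correlated between −0.16 and 0.37. With the replicate block, 1 bin was called higher from HS90 at 30 h, against 0 without it, no other count of bins changed, and the smallest p of a window test became 0.25. DKO and WT libraries cannot be compared with MFL without mixing experiments, and 3 replicates limit the permutation tests. MiSeq libraries were the shallowest.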
